A study of Homo sapiens with 44 samples.

Results

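Chromatin accessibility was examined at the peaks of 10 transcription factor genes that mark mesenchymal cell identity (FOXF1, FOXF2, FOXL1, NKX2-3, TWIST1, TWIST2, PRRX1, TCF21, GLI1 and GLI3) in human colon fibroblasts exposed to single cytokines. All peaks of the bulk ATAC-seq matrix whose row name carried 1 of these genes were taken, which gave 386 of 407383 peaks, and the rule used no measured value. The cells were Ccd18-Co, an established fibroblast line from human colon, so that the 44 libraries describe 1 line. Each of 11 groups had 4 libraries: cells left unstimulated in serum-free medium, and cells given IL-1β at 0.1 ng/ml or IL-6, IL-13, IL-17A, IL-22, IFN-α, IFN-γ, TGF-β1, TNF or oncostatin M (OSM) at 10 ng/ml. No source says that the 4 libraries of a group came from separate cultures, so the p-values measure the spread between these libraries, which may be technical. ATAC-seq cuts DNA where it is not covered by nucleosomes, and a value here is the read coverage of a 500-base peak per Mb of the library's coverage over all peaks, corrected for library composition.

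The forkhead factors FOXF1, FOXF2 and FOXL1 are made by gut mesenchyme in response to hedgehog ligands from the epithelium, and FOXL1 marks the subepithelial telocytes next to the crypts. GLI1 and GLI3 are the zinc finger factors that carry the hedgehog signal: GLI1 activates transcription and is itself a target of the pathway, whereas GLI3 acts largely as a repressor when the pathway is off. NKX2-3 is a homeobox factor of midgut and hindgut mesenchyme. TCF21 is a basic helix-loop-helix (bHLH) factor of visceral mesenchyme, TWIST1 and TWIST2 are bHLH factors that hold mesenchymal cells undifferentiated, and PRRX1 is a paired-related homeobox factor of mesenchymal progenitors and fibroblasts. Genes of this kind are often controlled by distant enhancers. The introns of HDAC9 beside TWIST1, for example, are known to hold TWIST1 enhancers.

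GLI3 had 124 peaks, TWIST1 57, TWIST2 46, PRRX1 46, FOXL1 34, NKX2-3 21, FOXF1 20, FOXF2 18, TCF21 10 and GLI1 10. By the matrix's own classes 26 were promoter, 27 exonic, 181 intronic and 152 distal, and 73 lay more than 100 kb from a start site of their gene. The centre of 91 peaks fell inside another gene, among them 44 of the 57 TWIST1 peaks, which lay in HDAC9. The matrix assigns peaks to genes by position, and whether a peak acts on the gene it is named for was not tested. Each peak is called below by its gene and the distance in bases from its centre to the nearest annotated start site of that gene (hg38, GENCODE), a minus sign marking positions upstream of that start, which can lie inside a gene with several starts.

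The libraries held between 148.8 and 823.1 Mb of coverage over peaks. The lowest, IL-6 replicate 4, stood apart: 27.1% of its peaks were at 0, and the next lowest library held 239.8 Mb. In each library 3 reads were worth between 0.285 and 1.568 coverage per Mb, and lower values are called at the floor. The start sites of 9 of 10 fibroblast markers had a peak (VIM 25.3, COL1A1 8.99 and THY1 7.79 in unstimulated cells; PDGFRA had none), whereas 1 of 5 epithelial markers did (CDH1 0.301). Among leukocyte markers PTPRC had a start-site peak of 8.24 and SPI1 and CD3E had none, and the smooth muscle markers ACTG2 and MYOCD stood at 23.3 and 13.8. Start-site peaks of the 4 endothelial markers lay between 0.462 and 1.41, and those of the glial and neuronal markers SOX10 and ELAVL4 at 0.711 and 0.555. Group means of ACTG2 ranged from 10.7 to 41.9 over the 11 groups and those of COL1A1 from 4.14 to 10.6, and their part in the results was not tested.

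The central 300 bases of 6 peaks are shown because they carry the changes described below: the opposite responses to IL-13 and TNF at TWIST2 +3931, the peaks with the strongest fall at TWIST2 under TGF-β1 and at GLI3 under TNF, gains at PRRX1 and TWIST1, and the fall inside GLI1. All are read on the plus strand of hg38, 5′ to 3′. Capitals mark letters that match AP-1 (TGANTCA), NF-kB (GGGNNTTTC) or STAT (TTCNNNGAA) strings on either strand. No such string stood in the central 300 bases of TWIST2 +3931 or GLI3 +60564.
TWIST2 +3931 (chr2:238851998-238852297): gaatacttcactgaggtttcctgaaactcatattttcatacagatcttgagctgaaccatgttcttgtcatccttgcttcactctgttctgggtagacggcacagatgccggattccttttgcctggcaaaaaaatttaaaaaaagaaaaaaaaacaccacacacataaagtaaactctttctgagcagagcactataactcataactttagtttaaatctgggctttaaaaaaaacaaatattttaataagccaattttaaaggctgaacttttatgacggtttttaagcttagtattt
TWIST2 -119337 (chr2:238728546-238728845): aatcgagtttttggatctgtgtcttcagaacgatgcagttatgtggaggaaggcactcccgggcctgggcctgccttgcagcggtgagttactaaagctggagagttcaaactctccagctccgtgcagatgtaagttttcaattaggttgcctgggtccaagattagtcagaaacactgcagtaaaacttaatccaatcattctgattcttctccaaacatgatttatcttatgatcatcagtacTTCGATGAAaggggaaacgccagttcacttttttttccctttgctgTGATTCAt
PRRX1 -39352 (chr1:170623227-170623526): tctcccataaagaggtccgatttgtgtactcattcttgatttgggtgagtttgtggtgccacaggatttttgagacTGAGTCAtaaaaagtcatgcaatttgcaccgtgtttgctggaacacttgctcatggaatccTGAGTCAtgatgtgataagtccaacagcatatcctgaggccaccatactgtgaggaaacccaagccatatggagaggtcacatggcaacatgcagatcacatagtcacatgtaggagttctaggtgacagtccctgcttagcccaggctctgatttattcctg
TWIST1 +255291 (chr7:18861484-18861783): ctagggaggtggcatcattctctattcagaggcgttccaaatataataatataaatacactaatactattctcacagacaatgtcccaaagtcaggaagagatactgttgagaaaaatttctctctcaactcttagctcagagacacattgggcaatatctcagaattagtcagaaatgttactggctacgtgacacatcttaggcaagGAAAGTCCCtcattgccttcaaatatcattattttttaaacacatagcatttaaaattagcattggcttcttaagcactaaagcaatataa
GLI1 -1533 (chr12:57462010-57462309): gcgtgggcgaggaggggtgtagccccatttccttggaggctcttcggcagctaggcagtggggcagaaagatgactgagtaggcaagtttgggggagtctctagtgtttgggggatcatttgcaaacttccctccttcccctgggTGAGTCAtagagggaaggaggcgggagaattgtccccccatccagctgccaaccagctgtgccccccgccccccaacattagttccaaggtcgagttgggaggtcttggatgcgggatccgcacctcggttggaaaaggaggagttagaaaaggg
GLI3 +60564 (chr7:42091707-42092006): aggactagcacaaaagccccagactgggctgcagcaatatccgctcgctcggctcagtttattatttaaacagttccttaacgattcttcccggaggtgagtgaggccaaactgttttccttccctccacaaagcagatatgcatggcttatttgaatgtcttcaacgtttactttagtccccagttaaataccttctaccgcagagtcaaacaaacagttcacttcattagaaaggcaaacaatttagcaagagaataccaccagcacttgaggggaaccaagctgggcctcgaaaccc

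Over 500 bases, the AP-1 string stood in 108 of the 386 member peaks (28%) and in 25.7% of all peaks, the NF-kB string in 10.9% and 8.85%, and the STAT string in 17.4% and 17.2%. Of the 9 member peaks raised by TNF, 7 held the AP-1 string, against 54.26% of all peaks raised by TNF, and of the 18 lowered by TNF 6 did, against 20.26%. Of the 13 raised by OSM, 8 held the AP-1 string, against 42.07% of all peaks raised by OSM. A match is a string of letters and says nothing of binding.

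TNF, IL-1β and TGF-β1 lowered more member peaks than they raised, and OSM and IFN-γ raised more than they lowered. With the scaling used here all peaks leaned the same way for IL-1β, TGF-β1, OSM and IFN-γ, whereas over all peaks TNF raised more than it lowered. For TGF-β1 and IL-1β the lean over all peaks changed with other scalings, as given below. Raised and lowered refer to peaks with a limma Benjamini-Hochberg adjusted p under 0.05 over the 407174 peaks in the test, and all 386 members were tested. TNF raised 9 members (2.68% of all peaks raised) and lowered 18 (1.46% of all peaks lowered). IL-1β raised 5 (background 1.44%) and lowered 15 (1.75%), and TGF-β1 raised 2 (1.11%) and lowered 19 (2.85%). In these bulk libraries, accessibility in fewer cells and less accessibility per cell cannot be told apart. For TNF this is 2.332% of members raised, near the background, and 4.663% lowered, above it. For IL-1β it is 1.295% raised and 3.886% lowered, and for TGF-β1 0.5181% and 4.922%.

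OSM raised 13 members (4.17% of all peaks) and lowered 2 (1.05%), which is below the background share in both directions. IFN-γ raised 8 (1.34%) and lowered 1 (0.232%), IFN-α raised 1 (0.358%) and lowered 3 (0.295%), and IL-13 raised 3 (0.759%) and lowered 2 (0.645%). No member was called for IL-6, IL-17A or IL-22 by limma, where 0.0666%, 0.0305% and 0.0894% of all peaks were called in either direction, while 33, 17 and 32 members had an unadjusted p under 0.05. These are 8.55%, 4.4% and 8.29% of members, against 8.54%, 6.28% and 7.59% of all peaks. The split between directions depended on scaling. With library totals alone, OSM raised 5 and lowered 5 members, TGF-β1 raised 6 and lowered 14, and over all peaks called for OSM the raised share went from 79.84% to 55.8%. Over all peaks called for TGF-β1 the raised share went from 27.99% to 47.8% with library totals and 58.6% with the median of ratios. For IL-1β it went from 45.14% to 50.74% with loess offsets. The median log2 change of the members was -0.08 for TNF (-0.02 over all peaks), -0.08 for OSM (-0.10) and -0.02 for TGF-β1 (0.05).

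**Figure D1:**
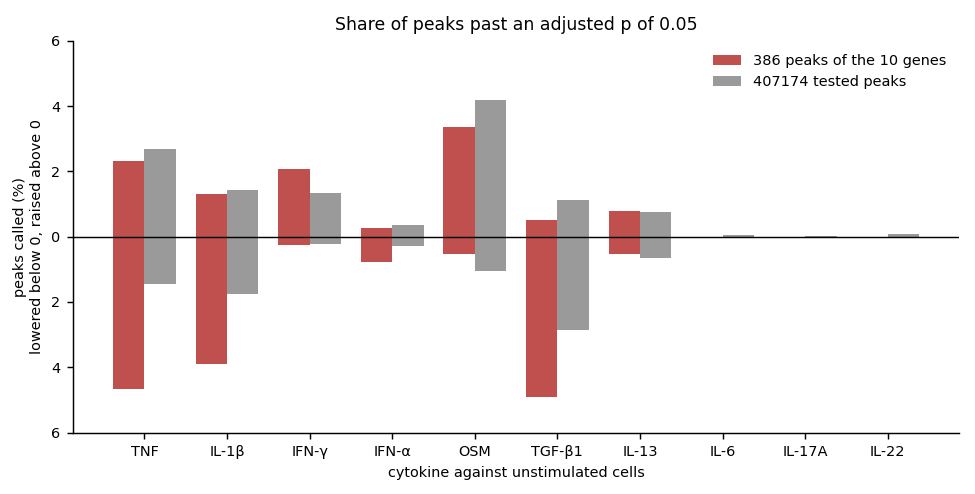
Percent of the 386 member peaks and of all 407174 peaks tested that were called for each cytokine against unstimulated cells (limma, adjusted p under 0.05), with raised peaks above 0 and lowered peaks below. The lowered bars of the members exceed those of all peaks for TNF, IL-1β and TGF-β1, and their raised bar is shorter for OSM.

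In all, 60 members were called for at least 1 cytokine, 31 of them for 1 cytokine, 20 for 2 and 9 for 3 or more, and 326 were called for none. Across the 11 groups together 101 members differed by the F test (26.17%, against 22.2% of all peaks). By gene these were 6 of 10 GLI1 peaks, 9 of 20 of FOXF1, 16 of 46 of TWIST2, 19 of 57 of TWIST1, 11 of 34 of FOXL1, 11 of 46 of PRRX1, 5 of 21 of NKX2-3 and 22 of 124 of GLI3. TCF21 had 1 of 10 and FOXF2 1 of 18. Of the 101 cytokine calls, counting a peak once for each cytokine, 40 held under every other processing tried.

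Start-site accessibility in unstimulated cells differed between the genes. The genes are ordered here by their most accessible peak within 1 kb of any annotated start, a choice made after the values were seen, and all peaks are 500 bases wide. TCF21 -12 (22.5, 24.0, 20.5 and 24.0 coverage per Mb, 22.7 ± 1.68, SD, n = 4), FOXF1 -243 (18.9, 23.3, 20.0 and 19.8) and FOXL1 -442 (21.0, 17.0, 18.1 and 20.0) came first. GLI3 -93 (14.6, 13.4, 19.5 and 15.1), GLI1 -497 (15.0, 16.0, 16.3 and 13.0), NKX2-3 -56 (13.8, 11.1, 9.99 and 13.7) and TWIST2 -31 (10.4, 11.4, 8.91 and 12.4) followed. TWIST1 -3 (6.2, 6.98, 8.37 and 9.14), PRRX1 +907 (6.6, 7.96, 7.21 and 7.1) and FOXF2 -5 (2.18, 0.457, 1.11 and 1.8) were the least open. Each gene's libraries overlapped those of the next in this order, except that FOXF2 lay below PRRX1 without overlap.

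For 4 genes the peak nearest to a start was another and less open one. FOXL1 +179 read 8.06, 10.2, 8.41 and 10.5, GLI1 -144 read 3.98, 5.01, 5.24 and 5.64, and PRRX1 +22 read 2.56, 3.41, 3.78 and 4.13. GLI3 has 10 annotated starts, and at GLI3 -46 all 4 unstimulated libraries were at the floor.

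The clearest start-site change was at TCF21, which fell under TGF-β1 to 13.0, 11.5, 10.9 and 11.2, below every unstimulated library (log2 change -0.94 ± 0.14, SE, adjusted p = 6.27e-08). TNF libraries read 20.7, 16.3, 17.4 and 22.8, and the direct difference between TGF-β1 and TNF was -0.70 (adjusted p = 0.000111), which was lost with loess offsets (0.124). TGF-β1 also lowered GLI3 -93 to 10.6, 8.51, 6.54 and 7.35 (-0.89 ± 0.17, 4.89e-05), without overlap. NKX2-3 -56 stood at 8.17, 8.18, 5.93 and 8.35 under TGF-β1 (-0.63, 0.0213), a call lost under 8 of 19 other settings. Lowered peaks were common at promoters under TGF-β1: 8.83% of all promoter peaks were lowered. GLI1 -497 read 8.15, 12.9, 11.7 and 8.99 under TGF-β1 (-0.53, 0.0449), a call lost under 12 of 19 settings. No cytokine was called at FOXF1 -243, FOXL1 +179, TWIST1 -3, PRRX1 +22, GLI1 -144 or FOXF2 -5.

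TWIST2 -31 was the start site raised by most cytokines. OSM took it to 21.4, 22.5, 20.3 and 17.0 (0.88 ± 0.16, 1.96e-05), above every unstimulated library. OSM raised 9.48% of all promoter peaks. IL-13 libraries read 14.8, 17.0, 22.9 and 18.3 (0.72, 0.00268), and the call was lost without IL-13 replicate 3 (0.0529). IFN-α at 20.7, 17.1, 14.4 and 16.6 (0.65, 0.0201) and IFN-γ at 13.8, 15.9, 17.0 and 17.6 (0.56, 0.0423) were also called, but lost under 4 and 8 of 19 other settings. IL-6 libraries read 14.4, 16.3, 17.5 and 22.3 and missed the threshold (0.0528), the highest being replicate 4, the library with the least coverage (148.8 Mb). TGF-β1 libraries, at 9.07, 8.29, 10.4 and 8.33, overlapped the unstimulated ones.

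**Figure D2:**
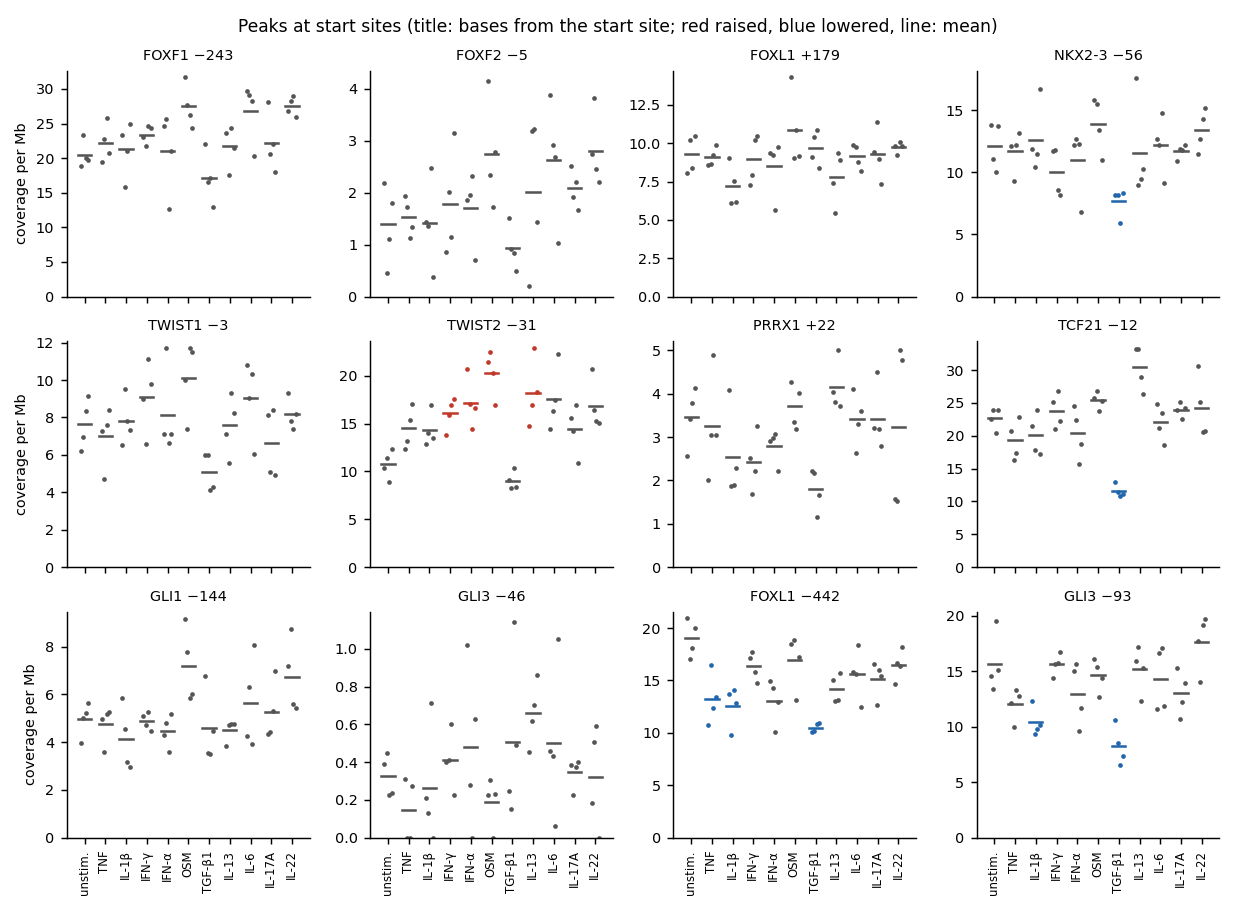
Coverage per Mb of the start-site peak of each of the 10 genes, with FOXL1 -442 and GLI3 -93 added, in every library of the 11 groups (points are libraries, horizontal lines are group means, red marks raised and blue lowered groups). TCF21 fell under TGF-β1 to between 10.9 and 13.0 from at least 20.5, whereas GLI3 -46 stayed at or under 1.14 in every library.

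Beyond the start site, TWIST2 peaks moved in both directions. TWIST2 +3931 (chr2:238851897-238852397, in an intron of TWIST2) read 6.34, 5.61, 4.44 and 5.55 in unstimulated cells. IL-13 raised it to 18.2, 16.7, 21.8 and 16.5, a ratio of means of 3.33 (log2 1.65 ± 0.24, adjusted p = 1.93e-07). TNF lowered it to 1.78, 2.61, 1.82 and 2.5 (-1.16, 0.000244). IL-1β at 1.24, 2.37, 4.38 and 1.94 (-1.10, 0.000921) and TGF-β1 at 2.34, 2.42, 2.61 and 2.11 (-1.05, 0.0017) fell too, so the peak was raised by 1 cytokine and lowered by 3. The library labelled IL-6 replicate 4 read 22.8 here, above all 4 IL-13 libraries, while the other IL-6 libraries read 5.3, 8.49 and 6.09, and IL-6 was not called (0.362).

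TWIST2 -119337 (chr2:238728445-238728945, in an intron of the long non-coding RNA gene LINC01937) read 21.3, 19.4, 18.3 and 19.0 and fell under TGF-β1 to 5.87, 8.7, 7.52 and 7.52 (-1.35 ± 0.16, 9.24e-13), the smallest adjusted p of any member among the comparisons of a cytokine with unstimulated cells. OSM libraries read 10.7, 13.2, 13.3 and 14.0 (-0.60, 0.00698), lost without OSM replicate 1 (0.062), and TNF libraries read 11.5, 17.3, 12.3 and 11.4 (-0.57, 0.0112), lost without unstimulated replicate 1 and without TNF replicates 1 or 4 (up to 0.0669). Its neighbour TWIST2 -120295, chosen after its values were seen, fell under TGF-β1 as well (-0.92, 0.000144). TWIST2 -94095 read 5.1, 6.55, 3.67 and 4.77. TNF libraries there read 0.772, 0.953, 2.92 and 1.1 (-1.61 ± 0.27, 8.44e-07). IL-1β at 1.24, 1.2, 1.92 and 2.21 (-1.37, 6.65e-05) and TGF-β1 at 1.54, 2.49, 1.73 and 1.95 (-1.17, 0.00114) lay below every unstimulated library too.

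Other TWIST2 peaks rose under the same cytokines. TWIST2 -124100 went from 1.38, 0.313, 0.621 and 0.458, with 2 libraries at the floor, to 2.89, 2.73, 3.91 and 1.96 under TNF (1.55, 0.00223) and to 3.25, 2.07, 3.34 and 3.8 under IL-1β (1.65, 0.00109). TWIST2 -26913, again chosen after its values were seen, went from 5.67, 4.27, 3.95 and 4.27 to 10.4, 12.5, 9.0 and 7.78 under TNF (1.04, 0.00212), a call kept under all 19 other settings. Of 46 TWIST2 peaks, TGF-β1 lowered 7 and raised 0, TNF raised 2 and lowered 5, and IL-1β raised 2 and lowered 4. Of all peaks, TGF-β1 lowered 2.85% and raised 1.11%, TNF raised 2.68% and lowered 1.46%, and IL-1β raised 1.44% and lowered 1.75%. The most accessible TWIST2 peak, +16177, at 32.9 ± 2.49 in unstimulated cells, was called for no cytokine.

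**Figure D3:**
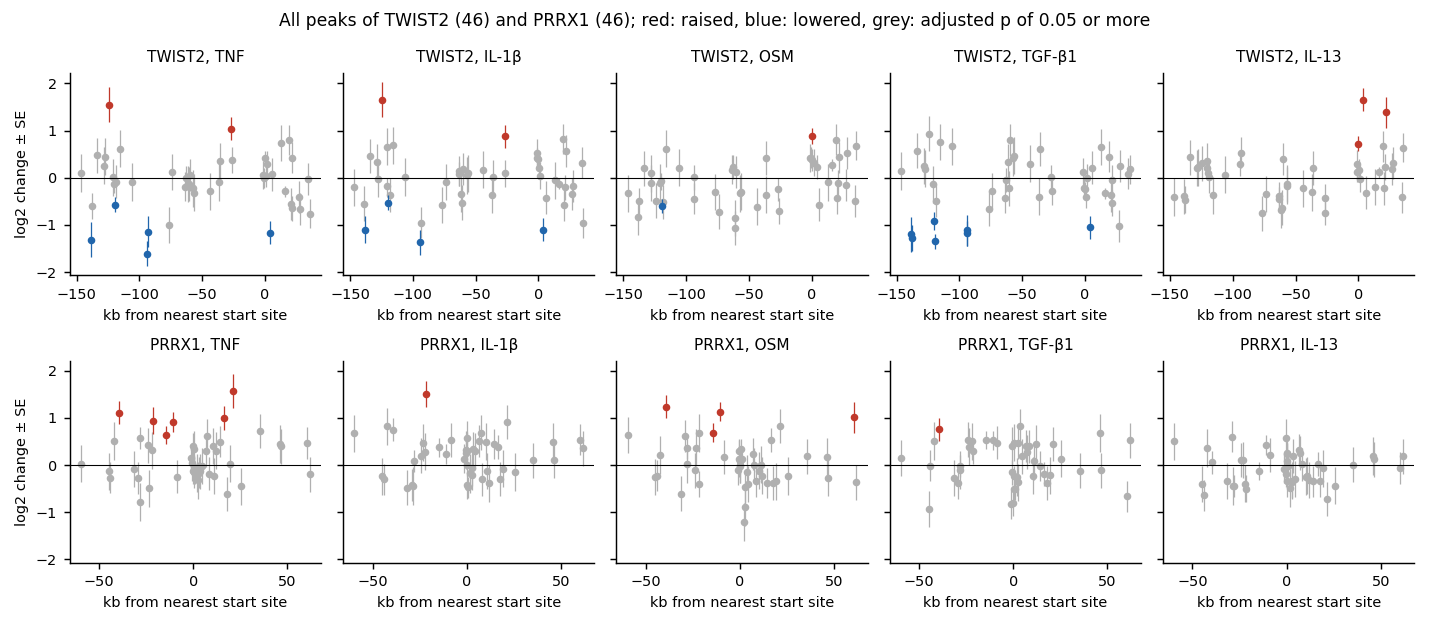
Log2 change (± SE) of every TWIST2 and PRRX1 peak under TNF, IL-1β, OSM, TGF-β1 and IL-13 against unstimulated cells, plotted by the distance in kb from the nearest start site of the gene. TWIST2 holds peaks that moved both ways, from 1.65 at +3931 under IL-13 to -1.61 at -94095 under TNF, whereas the called PRRX1 peaks were all raised.

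PRRX1 went 1 way: TNF raised 6 of its 46 peaks, OSM 4, IL-1β 1 and TGF-β1 1, and none was lowered by these 4 cytokines. Of all peaks, TNF raised 2.68%, OSM 4.17%, IL-1β 1.44% and TGF-β1 1.11%. The TGF-β1 call, at PRRX1 -39352 (0.75, adjusted p = 0.045), was lost under 10 of 19 settings. PRRX1 -10799 (chr1:170711568-170712068, in an intron of PRRX1) read 8.05, 5.86, 7.1 and 6.24 in unstimulated cells. OSM raised it to 16.9, 16.6, 15.5 and 12.8 (1.13 ± 0.20, 1.65e-05) and TNF to 11.8, 12.0, 16.8 and 12.8 (0.92, 0.000748), both without overlap. PRRX1 -39352 (chr1:170623126-170623626, in an intron of a long non-coding RNA gene) varied more, at 7.96, 7.68, 3.56 and 2.35. It read 14.8, 13.2, 9.76 and 11.1 under OSM (1.24, 5.74e-05) and 10.1, 10.8, 12.3 and 10.9 under TNF (1.11, 0.000371).

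PRRX1 -21611 (chr1:170700756-170701256, also in an intron) was the PRRX1 peak called for IL-1β, from 2.91, 2.27, 3.51 and 3.94 to 9.38, 8.43, 11.2 and 10.1 (1.51 ± 0.28, 4.08e-05). TNF libraries read 9.85, 3.02, 6.03 and 9.15 at this peak, overlapping the unstimulated ones (0.94, 0.03), a call lost under 6 of 19 settings. PRRX1 +21258, inside the gene, went from 0.518, 0.919, 1.36 and 1.83 to 3.72, 3.79, 4.47 and 4.93 under TNF (1.57, 0.00112). PRRX1 +22 at the start site did not pass the test for any cytokine, although peaks on both sides of it did.

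At TWIST1, TNF raised 1 of 57 peaks, against 2.68% of all peaks, and this peak lay far from the gene. TWIST1 +255291 (chr7:18861383-18861883, in an HDAC9 intron) read 1.69, 0.379, 1.67 and 0.808 in unstimulated cells, replicate 2 being at the floor. TNF raised it to 7.11, 4.99, 5.49 and 5.65 (2.03 ± 0.33, 5.26e-07), above every unstimulated library. IL-1β libraries read 4.1, 2.31, 2.91 and 3.59 (1.26, 0.00879), lost without unstimulated replicate 2 or IL-1β replicate 1 (up to 0.134). TGF-β1 against TNF differed by -1.46 (0.000989). OSM raised 4 of 57 TWIST1 peaks, against 4.17% of all peaks. The strongest was TWIST1 +362468, from 3.87, 0.571, 1.63 and 2.65 to 8.45, 7.94, 5.4 and 5.91 (1.63 ± 0.32, 7.16e-05).

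FOXL1 and FOXF1 lie side by side on chromosome 16, with 60945 bases between them. TNF lowered 5 of 34 FOXL1 and 4 of 20 FOXF1 peaks and raised none, while it lowered 1.46% and raised 2.68% of all peaks. FOXL1 -924 (chr16:86577375-86577875) read 7.62, 4.44, 3.38 and 5.82. TNF lowered it to 1.16, 2.13, 1.09 and 1.65 (-1.51 ± 0.25, 1.52e-06) and IL-1β to 2.01, 1.99, 2.56 and 1.01 (-1.27, 0.000136), both below every unstimulated library. TGF-β1 did not pass the test there (3.74, 4.86, 4.32 and 3.14), and TGF-β1 against TNF differed by 1.19 (0.000397). FOXL1 -442 fell under TGF-β1, from 21.0, 17.0, 18.1 and 20.0 to 10.1, 10.2, 10.8 and 10.9 (-0.83 ± 0.16, 8.48e-05). TNF (-0.52, 0.0372) and IL-1β (-0.59, 0.0151) lowered this peak too, calls lost under 8 and 2 of 19 other settings.

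A pair of FOXL1 peaks 757 bases apart separated TNF from IL-1β. FOXL1 +29925, chosen after its values were seen, went from 11.8, 18.4, 16.5 and 16.2 to 9.16, 5.61, 6.47 and 7.35 under TNF (-1.09 ± 0.18, 1.82e-06) and read 11.2, 10.5, 14.3 and 14.2 under IL-1β, which was not called. FOXL1 +30682 went from 13.4, 13.8, 9.62 and 9.0 to 5.61, 5.17, 7.33 and 3.48 under IL-1β (-1.04 ± 0.18, 4.32e-06) and read 11.5, 8.9, 9.95 and 9.8 under TNF, which was not called. The direct differences, IL-1β minus TNF, were 0.78 (0.0054, lost without TNF replicate 2 at 0.0755) and -0.87 (0.000592). Between IL-1β and TNF 5 members differed in all, 4 of them higher under IL-1β (1.32% of all peaks differed). Further FOXL1 peaks rose under OSM, such as FOXL1 +12145, from 12.2, 16.8, 13.2 and 14.0 to 21.3, 26.9, 22.2 and 18.1 (0.64, 0.00866). IL-13 lowered this peak to 12.0, 7.01, 6.93 and 10.5 (-0.63, 0.0265). Both calls were lost under several settings (4 of 19 for OSM, 3 of them other scalings, and 5 of 19 for IL-13).

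FOXF1 peaks downstream of the gene fell, as did FOXF1 +1991 inside it, while its start site passed the test against unstimulated cells for no cytokine. Across the 11 groups FOXF1 -243 did differ by the F test (adjusted p = 0.000163). FOXF1 +8164 (chr16:86518441-86518941) read 8.85, 9.22, 10.6 and 10.8 and fell under TNF to 5.36, 5.67, 4.43 and 3.89 (-0.97 ± 0.21, 0.000404). FOXF1 +8769, next to it, went from 15.1, 14.0, 20.6 and 15.7 to 9.54, 7.36, 8.22 and 11.5 under TNF (-0.81, 0.000272) and to 10.3, 9.33, 10.3 and 8.01 under IFN-α (-0.75, 0.00638), the latter lost without unstimulated replicate 3 or IFN-α replicate 4 (up to 0.102). IL-1β libraries read 7.69, 6.94, 8.56 and 10.1 at FOXF1 +8164, overlapping the unstimulated ones. TGF-β1 also lowered 4 of 20 FOXF1 peaks, against 2.85% of all peaks. Its calls at FOXF1 +8164 (-0.715, 0.0238) and FOXF1 +8769 (-0.5545, 0.0357) were lost under 9 and 11 of 19 settings.

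GLI1, the activator of the hedgehog pathway, fell under TNF and IL-1β at GLI1 -1533. This peak (chr12:57461909-57462409, in an intron of GLI1) read 9.25, 10.6, 8.17 and 9.29, then 6.52, 5.67, 4.58 and 5.57 under TNF (-0.70, 0.0205) and 6.16, 5.69, 3.9 and 7.12 under IL-1β (-0.68, 0.0297). These calls were lost without unstimulated replicate 2 or TNF replicate 3 (up to 0.108), and for IL-1β under 5 of 19 settings (up to 0.253), although neither group overlapped the unstimulated one.

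GLI3 had the fall with the most negative log2 change of any member called: GLI3 +60564 (chr7:42091606-42092106, in an intron) went from 3.42, 3.81, 2.46 and 2.33 to 0, 0.384, 0.194 and 0.826 under TNF, 3 of them at the floor (-2.11 ± 0.35, 7.45e-07). TGF-β1 took it to 1.33, 1.15, 0.561 and 0.517 (-1.36, 0.00598). IFN-γ moved GLI3 peaks in the other direction and raised GLI3 -19021 from 1.95, 1.92, 2.05 and 2.03 to 5.04, 4.76, 8.1 and 5.21 (1.31, 0.00298). The interferons differed at GLI3 -74744, where IFN-α read 0.813, 1.2, 0 and 0 and IFN-γ 2.43, 3.09, 2.53 and 2.93 against 2.0, 1.27, 1.21 and 2.86 unstimulated (IFN-α minus IFN-γ -1.90, 9.2e-05). In all, 4 members differed between IFN-α and IFN-γ, each lower under IFN-α (1.03% of all peaks differed). TGF-β1 and TNF differed at 25 members, 20 lower and 5 higher under TGF-β1 (4.77% of all peaks), a split that became 10 and 10 with library totals alone.

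IFN-γ raised 4 GLI3 peaks (-19021, +43677, +580 and +54439), 2 TWIST2 peaks (-31 and -115764) and 2 FOXL1 peaks (+40557 and +7427), and lowered TWIST2 -26391 (-1.06, 0.0206). Of all peaks it raised 1.34% and lowered 0.232%. GLI3 +43677, chosen after its values were seen, went from 0.351, 0.579, 1.7 and 0.51 to 1.76, 6.66, 5.59 and 3.39 (1.89, 0.000465), a call lost with a pseudocount of 0.1. The IFN-γ calls at GLI3 -19021 and GLI3 +580 were those kept under all 19 other settings.

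**Figure D4:**
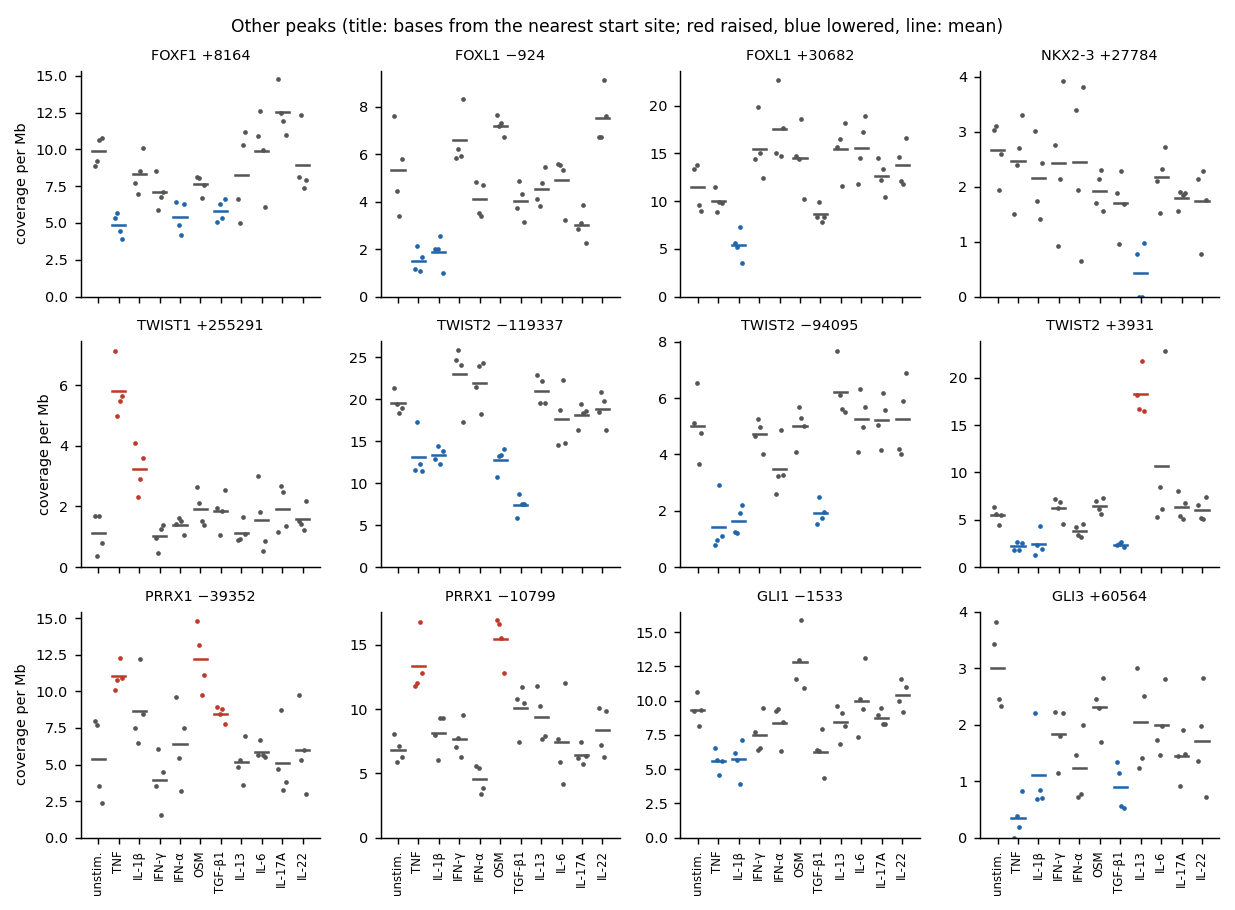
Coverage per Mb of 12 peaks away from the start sites in every library of the 11 groups (points are libraries, horizontal lines are group means, red marks raised and blue lowered groups). TWIST2 +3931 stands at 16.5 to 21.8 in the IL-13 libraries and at 22.8 in IL-6 replicate 4, against 4.44 to 6.34 in unstimulated cells.

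IL-13 was called at 5 members: TWIST2 +3931, +21700 and -31, all raised, and NKX2-3 +27784 and FOXL1 +12145, both lowered. TWIST2 +21700 went from 1.87, 2.01, 0.206 and 3.36 to 4.69, 5.01, 5.95 and 3.6 (1.39, 0.00674), a call lost without unstimulated replicate 3. Over all cytokines NKX2-3 was called at 3 of 21 peaks, TCF21 at 1 of 10 and FOXF2 at 0 of 18, against 60 of 386 members. At NKX2-3 +27784 IL-13 libraries read 0.767, 0, 0 and 0.972 against 3.04, 3.11, 1.95 and 2.6 unstimulated (-1.93 ± 0.33, 2.03e-05), with 2 libraries at 0. TCF21 was called at its start site and for TGF-β1 alone. No FOXF2 peak was called for any cytokine by limma (lowest adjusted p 0.0655), and its most accessible peak, FOXF2 -7598, reached 4.24 ± 0.298, the lowest maximum of the 10 genes.

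**Figure D5:**
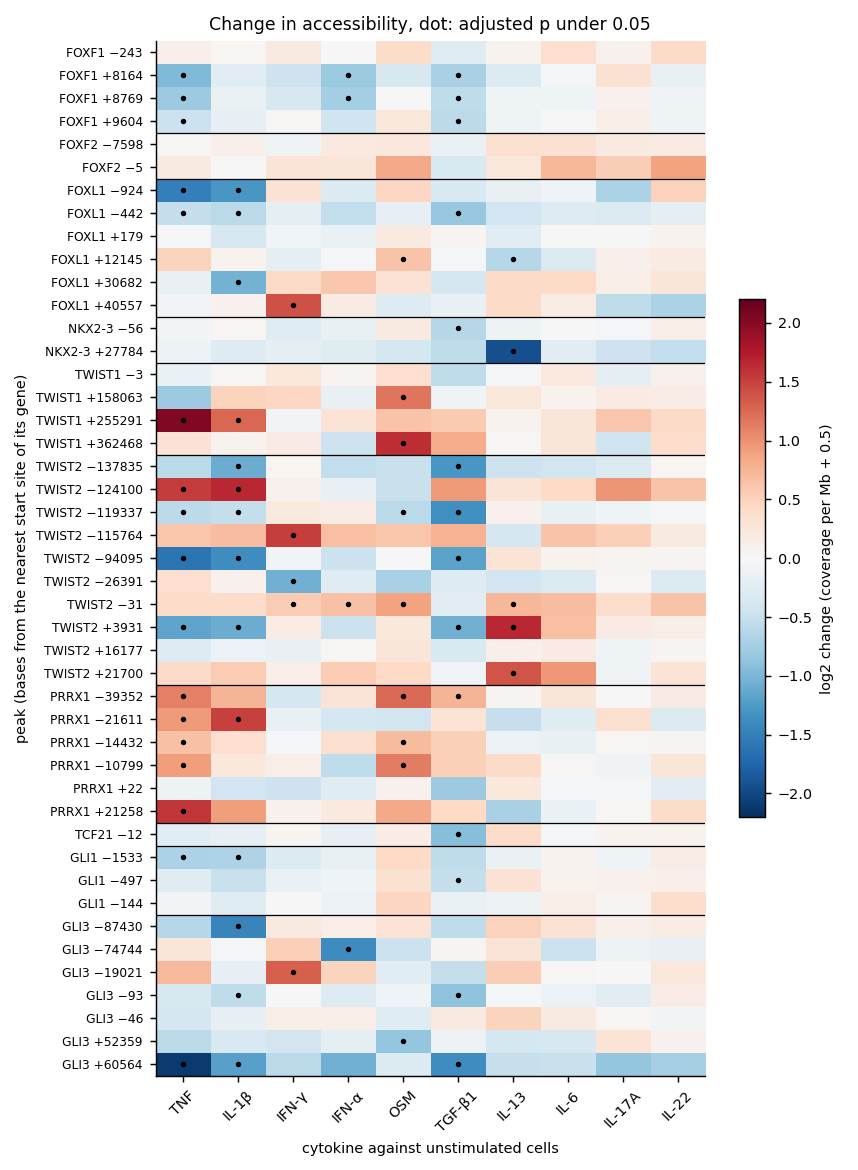
Log2 change of the 45 named peaks under each of the 10 cytokines against unstimulated cells, with dots where the limma call passed. The IL-6, IL-17A and IL-22 columns hold no dot, and the TNF and IL-1β columns hold both raised PRRX1 and TWIST1 peaks and lowered FOXL1 and GLI3 peaks.

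Summed over all peaks of a gene, PRRX1 rose under TNF from 81.32 to 115 coverage per Mb (0.50, 1.87e-07), OSM (109.5, 0.43) and IL-1β (102.3, 0.33). TWIST2 fell under TGF-β1 from 159.3 to 119.2 (-0.42, 1.18e-07) and rose under IL-13 to 187.5 (0.24). TCF21 fell under TGF-β1 from 39.37 to 25.54 (-0.61, 2.67e-06). GLI1 fell from 53.49 to 41.57 under TNF, 40.61 under IL-1β and 41.41 under TGF-β1, the last lost with the median of ratios (0.0734). Under OSM the GLI1 sum rose to 70.65 (0.40). That call was lost with library totals alone (0.19, 0.0716), the median of ratios and loess offsets (up to 0.111). FOXF1 fell from 138.8 to 107.6 under TNF (-0.37, 0.000208), 108.4 under TGF-β1 (-0.35, 0.000221) and 110.8 under IFN-α (-0.33, 0.00528). FOXL1 fell from 134.9 to 104.7 under IL-1β and to 110.8 under TNF. FOXF2 and NKX2-3 sums were called for no cytokine. Sums were called often in general: 64.6% of 23383 genes were called for at least 1 cytokine, and 43.16% for OSM.

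Among 14 other genes of the hedgehog pathway, 567 peaks were tested. TNF raised 14 (2.47%, against 2.68% of all peaks) and lowered 15 (2.65%, against 1.46%), and IL-1β raised 10 (1.76%, against 1.44%) and lowered 19 (3.35%, against 1.75%). OSM raised 16 (2.82%, against 4.17%) and lowered 5 (0.882%, against 1.05%), and TGF-β1 raised 8 (1.41%, against 1.11%) and lowered 13 (2.29%, against 2.85%). PTCH1, the hedgehog receptor and a target of the pathway, held the clearest of the lowered peaks: a peak 3565 bases from a start site, chosen after its values were seen, fell from a mean of 17.38 to 4.376 under TNF (-1.88 ± 0.18, 1.1e-17), 5.699 under IL-1β and 6.51 under TGF-β1. Other peaks of the list rose, also chosen after their values were seen. A GAS1 peak went from 0.7597 to 11.33 under TNF (3.34 ± 0.36, 1.19e-14), and another PTCH1 peak from 15.88 to 29.67 under OSM. Against the same shares of all peaks, TNF raised 6 (2.23%) and lowered 2 (0.743%) of 269 peaks of 12 other mesenchymal or EMT transcription factors, and TGF-β1 raised 3 (1.12%) and lowered 7 (2.6%). Of 409 peaks of 8 stromal niche signals, TNF raised 14 (3.42%) and lowered 7 (1.71%) and OSM raised 19 (4.65%) and lowered 2 (0.489%). Of 201 peaks of 11 genes next to the members, OSM raised 14 (6.97%) and lowered 2 (0.995%).

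By the pattern of gene sums over the 11 group means, the gene most like PRRX1 was CXCL6 (Pearson's r = 0.986), that most like TWIST2 was UGGT1 (0.963), that most like FOXL1 was CEP120 (0.972) and that most like GLI1 was VPS26B (0.979). These are descriptions over 11 points that share libraries and composition correction.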

How the data were processed

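ATAC-seq libraries of Ccd18-Co cells were aligned to hg38 and peaks called with MACS2 in the ENCODE ATAC-seq pipeline by the authors, per the labels and the study's methods. The deposited matrix holds signal, the unscaled read coverage summed over each 500-base peak, for 44 libraries. The study's methods describe filters by p-value, blacklisted regions and low abundance for a consensus peak set of fewer samples. How the 500-base peaks of this matrix were chosen, and whether reads were shifted for transposase binding, is not given in the sources used here. All 44 columns were matched to samples by library number (0 unmatched).

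Coverage was divided by library total (Mb) and by a composition factor, the trimmed mean of log ratios to the geometric-mean library (30% of ratios and 5% of means trimmed at each end). The log2 of this value plus 0.5 was fitted by limma 3.58.1 (R 4.3.3, trended variance) over all 44 libraries with group as the only term. Peaks with a log2 mean under -3 were left out (209), and p-values were adjusted by Benjamini-Hochberg over 407174 peaks. Coverage is not a read count, so no count model was used. Folds on this scale understate the change of low peaks. The procedure was tested on simulated data.

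Peaks named were those nearest a start site (within 1 kb), the smallest F test p per gene, the 3 strongest rises and falls per cytokine with a mean of at least 1, and the most accessible in unstimulated cells. The 10 genes, the gene lists and the rule were chosen with earlier results of these data known. Alternatives were another scaling, GC correction, pseudocounts of 0.1 and 2, other filters, quality weights, the replicate block and leaving out each library.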

Additional observations from a re-analysis of the deposited data

Results flagged for a closer look

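Of 232 groups of 4 libraries checked, 15 held a library far from the other 3 (Dixon's test), where chance gives about 1 in 20. Among peaks these were NKX2-3 -56 under TGF-β1 (replicate 3, 5.93 coverage per Mb), GLI3 -87430 unstimulated (replicate 1, 4.49), GLI3 +60564 under IL-1β (replicate 1, 2.21), TWIST2 -94095 under TNF (replicate 3, 2.92), TWIST2 -115764 under IFN-γ (replicate 3, 3.03), GLI3 -19021 under IFN-γ (replicate 3, 8.1), TWIST2 -119337 under TNF (replicate 2, 17.3) and FOXL1 +12145 under TGF-β1 (replicate 2, 10.9). Among gene sums they were FOXF2 unstimulated (replicate 4, 19.36) and under OSM (replicate 2, 11.94), NKX2-3 under IL-1β (replicate 4, 52.82), TWIST1 under TGF-β1 (replicate 4, 85.47), TWIST2 under IL-13 (replicate 3, 194.2) and under IL-17A (replicate 1, 176), and PRRX1 under IL-22 (replicate 2, 78.07).

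A further 15 named peaks differed between a pair of cytokines by the direct limma contrast. IL-1β minus TNF was 1.28 at TWIST1 +158063, 0.73 at FOXF1 +8164, 0.66 at FOXF1 +8769 and -0.87 at FOXL1 +30682. IFN-α minus IFN-γ was -1.90 at GLI3 -74744. TGF-β1 minus TNF was -1.13 at PRRX1 +21258, -0.78 at TWIST2 -119337, -0.65 at TWIST2 -31, -0.70 at TCF21 -12, -1.46 at TWIST1 +255291, -1.23 at GLI3 -19021, -0.54 at GLI3 -93, -0.58 at NKX2-3 -56, 1.19 at FOXL1 -924 and -0.52 at FOXL1 +12145. Of these, the differences at FOXL1 +30682, GLI3 -74744, TWIST1 +255291, GLI3 -19021 and FOXL1 -924 were called under all 19 other settings. Others were lost under many: FOXL1 +12145 and GLI3 -93 under 12, PRRX1 +21258 under 11, NKX2-3 -56 under 10 and FOXF1 +8164 under 9. TWIST1 +158063 and FOXF1 +8769 were lost under 4, TWIST2 -31 under 3, and TWIST2 -119337 and TCF21 -12 under 1. The contrasts of IL-1β and of TGF-β1 with TNF share the TNF libraries.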

How the results depend on the processing

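Of 154 counts of member peaks under 11 other settings, 142 lay within 1.5 times the count reported. The exceptions were 1 for IL-6 in place of 0 (library totals, median of ratios, loess offsets, a mean of at least 1 per Mb, and the replicate block), 7 for IFN-α against IFN-γ (median of ratios, loess offsets), 13 for TGF-β1 (GC correction), 5 for IFN-γ (pseudocount 0.1), 8 for IL-13 (mean of at least 1 per Mb), and 31 for OSM and 8 for IL-1β against TNF (array quality weights). The cause was not tested. Leaving out 1 library gave 19 to 21 for TNF, 12 to 17 for IL-1β, 4 to 9 for IFN-γ, 1 to 4 for IFN-α, 9 to 13 for OSM, 12 to 18 for TGF-β1, 4 to 7 for IL-13, 0 to 1 for IL-6, 0 for IL-17A and IL-22, 96 to 106 for the F test, 1 to 5 for IL-1β against TNF (1 without TNF replicate 2), 2 to 5 for IFN-α against IFN-γ (2 without IFN-γ replicate 3) and 14 to 22 for TGF-β1 against TNF (14 without TNF replicate 4). Without IL-6 replicate 4, IL-6 calls over all peaks went from 271 to 15. Members raised and lowered by OSM, 13 and 2, became 5 and 5 (median of ratios) or 6 and 7 (loess), those by TGF-β1, 2 and 19, became 6 and 10 or 4 and 11, and those of TGF-β1 against TNF, 5 and 20, became 11 and 10 or 11 and 6. The median log2 change of all peaks under OSM moved from -0.10 to -0.21 with library totals. The sum over GLI3 peaks under TGF-β1 went from -0.15 to 0.0253 with the median of ratios. Of 68 named peak changes 34 were called under every setting and 0 reversed. Same-numbered libraries shared little deviation (r from -0.02 to 0.03 over 40 pairs), and 15 treated libraries correlated best with their own number. TGF-β1 replicate 4, for example, had r = 0.032 with its own number and at most -0.008 with the others. Values this small over noisy peaks cannot exclude a weak effect shared by number. The replicate block gave 27 for TNF and 21 for TGF-β1, as without it, while OSM calls over all peaks went from 21284 to 22012. Coverage limits the low peaks, where 3 reads are worth up to 1.568 per Mb.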
